A study of Mus musculus with 5 samples.

Results

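Chymases, cathepsin G and granzymes are serine proteases encoded side by side on mouse chromosome 14, and 10 genes of that cluster were examined here in cultured mast cells. They were found in the table of 25549 gene models by their symbols alone, and every symbol matched 1 row: Cma1, Cma2, Mcpt1, Mcpt2, Mcpt4, Mcpt8, Mcpt9, Ctsg, Gzmb and Gzmc. The cells were mast cells grown from the bone marrow of C57BL/6 mice for 6 to 8 weeks with 50 ng/mL recombinant interleukin-3 and given no further treatment. Control cells carried Cpa3-Cre (n = 2 samples), which puts the Cre recombinase under the promoter of Cpa3, a mast cell carboxypeptidase gene. The other cells carried Cpa3-Cre and, in addition, the miR-9∆fl/∆fl allele (n = 3 samples), and are called the miR-9 line below. Both groups therefore carry Cre, and this promoter is also known to act in basophils and some progenitors. The labels describe the mice as matched for age and sex, give no ages, do not say whether Cre raises or removes the microRNA miR-9, and name no separate mouse or culture for each sample. The p-values may therefore reflect technical spread alone. The series title names Cma1 as a gene raised by miR-9, so the comparison asks how this gene and its neighbours differ between the genotypes.

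Mast cells store many proteases of this kind in active form in secretory granules, often bound to the proteoglycan serglycin, and release them on degranulation. Chymases typically cut after aromatic residues and act on matrix proteins, angiotensin and other proteases, although the Cma1 enzyme of mice has an elastase-like preference. Cathepsin G overlaps with them in specificity, and granzymes are best known from cytotoxic lymphocytes. In mice, Cma1 (mast cell protease 5) and Mcpt4 mark connective tissue mast cells, Mcpt1 and Mcpt2 mark mucosal mast cells, Mcpt9 was described in uterine mast cells, and Mcpt8 is a basophil protease. The enzymes are made with a signal peptide and a short propeptide, which cathepsin C removes.

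Because the labels describe the mice as matched for sex, sex-linked transcripts were read too. Of 46 gene models on chromosome Y with a p-value, 7 were positive (15.2 percent), beside 40.2 percent of all tested genes. At an adjusted p under 0.05, 4 were lower and 0 higher, beside 0.411 percent of all tested genes in either direction. An unadjusted p under 0.05 was found for 25 of the 46 (54.3 percent), beside 7.92 percent of all tested genes. The median of the 46 was -0.85 per the authors' deposited table. Among the Y genes active in many tissues, Uty stood at -0.65 and Kdm5d at -0.55 per the authors' deposited table. In the same class, Ddx3y stood at -0.36 and Eif2s3y at -0.20 per the authors' deposited table. Usp9y, also on chromosome Y, stood lower, at -1.002 per the authors' deposited table (unadjusted p = 0.0399, adjusted p = 0.586). None of the Y genes named here passed the adjusted threshold. Xist, the RNA that coats the inactive X chromosome of female cells, stood at 1.58 per the authors' deposited table (p = 0.000994, adjusted p = 0.101). The part of sex in the values of the proteases was not tested.

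Most genes of the cluster had slightly higher values in the miR-9 line, led by Cma1 and Gzmb, and none passed the test over all genes. In the authors' deposited table, 9 of the 10 genes had a positive log2 fold change, meaning a higher value in the miR-9 line, and 1 (Mcpt2) had a negative value. The median over the 10 genes was 0.33 on the log2 scale, beside -0.09 over all 25549 rows of that table, of which 39.3 percent were positive. Of the 8 with a p-value per the authors' deposited table, 0 had a Benjamini-Hochberg adjusted p under 0.05, where 0.411 percent of all 24071 tested genes did (99 genes, with 0.245 percent in the higher direction). At an unadjusted p under 0.05, 2 of the 8 stood out (25 percent), both higher, beside 7.92 percent of all tested genes in either direction and 3.87 percent in the higher direction. Mcpt8 and Ctsg came without a p-value. Lists of other genes read below differed in their share of positive values. Positive were 4 of 5 granule proteases elsewhere, 7 of 9 mast cell markers and 4 of 6 basophil markers. Also positive were 4 of 10 maturation and storage genes, 5 of 12 transcription factors and 2 of 4 cytotoxic granule genes. The counts were 1 of 8 for chymase substrates, 1 of 6 for NK and T cell markers and 0 of 9 for neutrophil markers. No neutrophil marker had a p-value, and 24.6 percent of all rows without one were positive. Some lists share genes, and the inhibitor list is left out here. In whole cultures, a change in how many cells express a gene and a change in RNA per cell cannot be told apart.

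**Figure D1:**
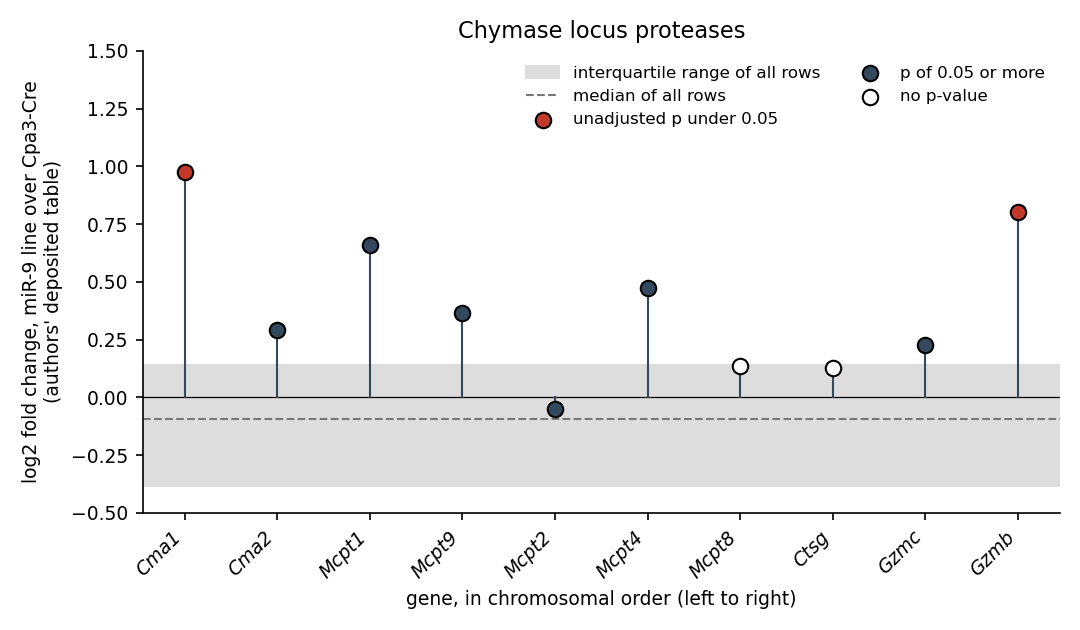
Log2 fold change of each protease gene (y axis, from the authors' deposited table) in chromosomal order (x axis), with the median and the interquartile range of all rows as a dashed line and a grey band. Cma1 at 0.97 and Gzmb at 0.80, at opposite ends of the cluster, stand highest, and Mcpt2 at -0.05 is the single negative value.

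Cma1, the gene named in the series title, had the largest difference of the 10. The authors' deposited table gave it a log2 fold change of 0.97, a value 1.97-fold higher in the miR-9 line, which exceeded 98.6 percent of all rows. The p-value of Cma1 per the authors' deposited table was 0.0176, and 957 genes had a smaller one. After Benjamini-Hochberg adjustment over 24071 genes this became 0.442, so Cma1 was not called. Its 5 exons lie on the minus strand of chromosome 14 from 55941453 to 55944661 (GRCm38).

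Mcpt4, whose enzyme is regarded as the functional counterpart of human chymase, stood at 0.47 per the authors' deposited table (1.39-fold, p = 0.379, adjusted p = 0.898). It lies on the same strand as Cma1 and is the gene of the cluster closest to Cma1 in coding sequence. The position of Mcpt4 is 56059744 to 56062310 on the minus strand.

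The mucosal type proteases had values of opposite sign. Mcpt1 stood at 0.66 per the authors' deposited table (1.58-fold, p = 0.108, adjusted p = 0.742), behind Cma1 and Gzmb, at 56017964 to 56020391 on the plus strand. Mcpt2, which lies on the same strand at 56042123 to 56044634, stood at -0.05 per the authors' deposited table (unadjusted p = 0.896, adjusted p = 0.989). These genes are often detected together in mucosal mast cells, and here neither passed the test. Whether their fold changes differ from each other was not tested.

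Cma2 and Mcpt9 had similar values, 0.29 (p = 0.479) for Cma2 and 0.36 (p = 0.353) for Mcpt9 per the authors' deposited table. After adjustment these p-values were 0.917 and 0.887. Cma2 occupies 55971428 to 55973995 on the plus strand, and Mcpt9 occupies 56026864 to 56030495 on the minus strand. Their coding sequences are nearly the same, as described below, so the values of this pair are uncertain where reads were shared.

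Gzmb, the granzyme that activates caspases in target cells and that mast cells can also make, had the second largest difference. It stood at 0.80 per the authors' deposited table (1.74-fold, p = 0.0494), just inside the unadjusted threshold, with an adjusted p of 0.627. Its exons lie at 56258856 to 56262260 on the minus strand, at the far end of the cluster from Cma1. The adjacent granzyme gene Gzmc, at 56231401 to 56234656 on the minus strand, stood at 0.23 per the authors' deposited table (p = 0.672, adjusted p = 0.958). Both granzyme genes had positive values, and Gzmc was nearer to 0 than Gzmb.

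Mcpt8, the basophil protease (56082166 to 56085216, minus strand), stood at 0.13 per the authors' deposited table, and Ctsg, the cathepsin G gene known from neutrophil and mast cell granules (56099881 to 56102574, minus strand), also at 0.13. Neither had a p-value, which was empty for 5.78 percent of all rows. Markers of other blood cells were also read. Of the 9 neutrophil markers on the list (Elane, Prtn3, Mpo, Ltf, Camp, Ngp, S100a8, S100a9 and Ly6g) 0 had a p-value, and the log2 fold changes per the authors' deposited table lay between -0.47 and -0.000511. For basophils, 4 of 6 markers had a p-value and none was called, while the other protease on that list, Prss34, also lacked a p-value (0.52 per the authors' deposited table). Of the mast cell markers, which overlap other lists used here, 9 of 9 had a p-value. Their median was 0.09 per the authors' deposited table, and 1 was called (Tpsb2), beside 0.411 percent of all tested genes. Of 8 markers of NK and T cells, which also carry granzymes, 6 had a row and 5 a p-value. All 5 were negative, with a median of -0.53 per the authors' deposited table and no call. Of all tested genes, 40.2 percent were positive. The part of such cells in the values of Mcpt8, Ctsg, Gzmb and Gzmc was not tested.

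**Figure D2:**
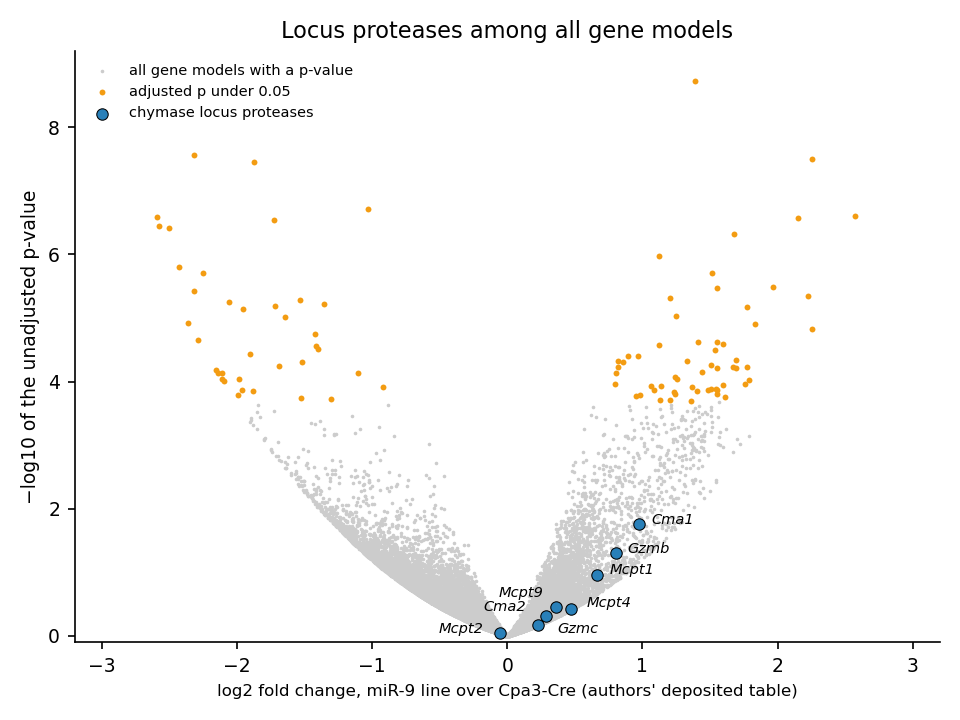
Unadjusted p-value on a −log10 scale (y axis) against log2 fold change (x axis) for all gene models with a p-value per the authors' deposited table; 4 models lie outside the axes. The 8 protease genes with a p-value (blue) all lie below the genes with an adjusted p under 0.05 (orange), and Cma1 is the highest of them.

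The cluster spans 321 kb, and 7 of the 10 genes lie on the minus strand and 3 on the plus strand (Cma2, Mcpt1 and Mcpt2). Gaps between neighbouring members run from 6.47 kb between Mcpt1 and Mcpt9 to 129 kb between Ctsg and Gzmc. In that last gap GENCODE M21 places 5 further granzyme genes (Gzmd, Gzme, Gzmf, Gzmg and Gzmn). No gene model of the authors' deposited table lies there, so these genes had no values to read. Chromosomal order and size of the difference did not follow each other, since the highest values stood at both ends. The 14 other gene models that lie within the cluster or up to 200 kb to either side had a median of 0.14 per the authors' deposited table, with 9 positive and 5 negative values.

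Of those neighbours, 1 of the 13 with a p-value was called, beside 0.411 percent of all tested genes. Ripk3, the kinase that starts necroptosis, begins 156 kb from the 5′ end of Cma1 (55784996 to 55788857, minus strand). It rose by 1.12 on the log2 scale per the authors' deposited table (2.17-fold, p = 1.07e-06, adjusted p = 0.00152). Between Ripk3 and Cma1 the values were mixed: per the authors' deposited table, Nfatc4, a calcium-regulated transcription factor, stood at -0.53, Nynrin at 0.52, Cbln3 at -0.32, Khnyn at -0.28 and Sdr39u1 at -0.20. Beyond Ripk3, the ribosome biogenesis gene Nop9 (0.29), Cideb (0.28), the leukotriene B4 receptor genes Ltb4r2 (0.36) and Ltb4r1 (0.25, no p-value) and the adenylyl cyclase gene Adcy4 (0.03) were listed per the authors' deposited table. Inside the cluster, the processed pseudogenes Gm5801 and Gm4819 stood at 0.02 and 0.38 per the authors' deposited table. On the far side of Gzmb, the proton pump gene Atp12a stood at -0.87 per the authors' deposited table (p = 0.0943). Apart from Ripk3, the neighbours with a p-value had adjusted p-values between 0.726 and 0.996.

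**Figure D3:**
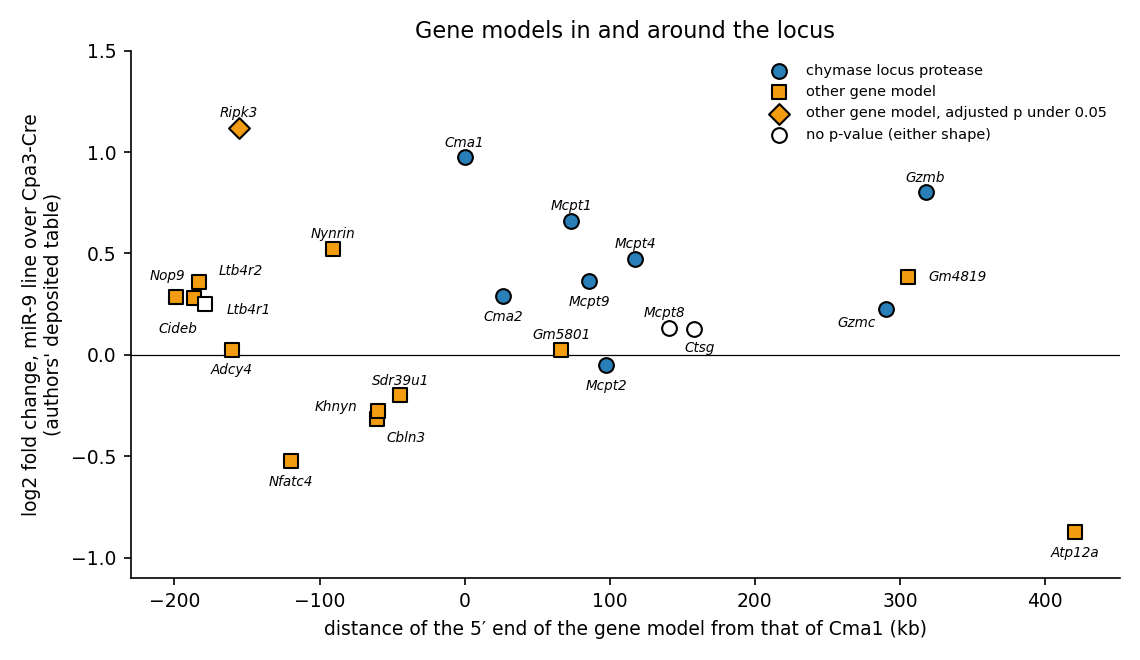
Log2 fold change (y axis, from the authors' deposited table) of 24 gene models against the distance of their 5′ ends from that of Cma1 in kb (x axis; positive towards Gzmb). Proteases (circles) range from -0.05 to 0.97, other models (squares) from -0.87 to 1.12, and Ripk3 (diamond) is the single one with an adjusted p under 0.05.

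The deposited gene models show a common exon plan. All 10 have 5 exons, and the summed exon length runs from 855 bases (Mcpt8) to 2000 bases (Mcpt9). Exon 3 is 136 bases long in 9 genes and 133 in Mcpt8. Exon 4 measures 255 bases in 8 genes and 261 in both granzyme genes. Exon 2 has 151 bases in 7 genes and 148 in Mcpt8, Ctsg and Gzmb. The outer exons vary more, with a first exon of 1282 bases in Mcpt9 against 84 to 193 in the others and a last exon of 707 bases in Gzmb against 176 to 396 in the others.

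**Figure D4:**
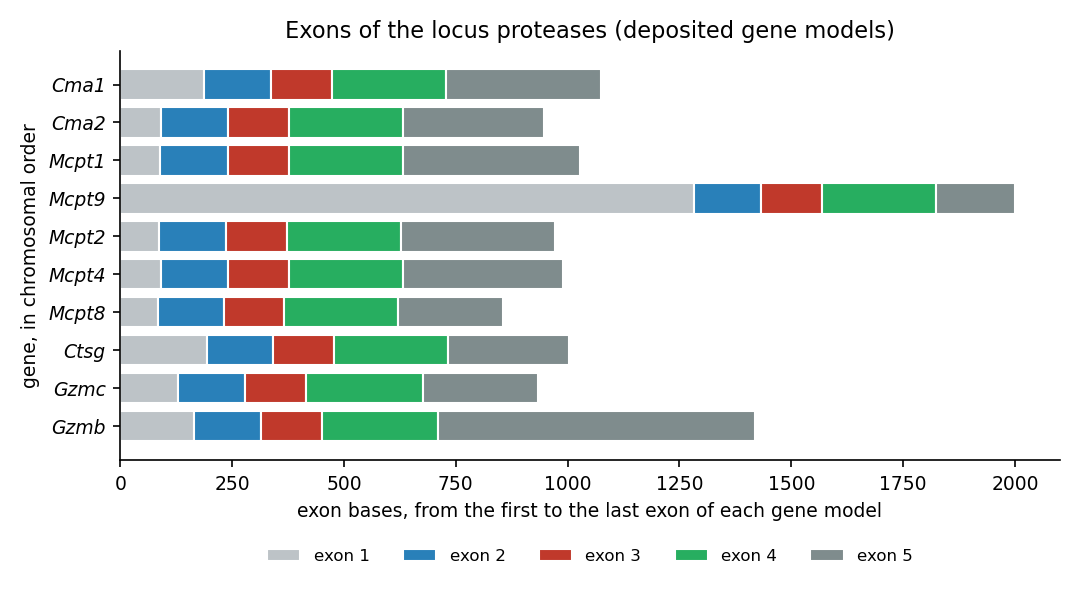
Exon lengths in bases (x axis) of the 10 deposited gene models in chromosomal order (y axis), stacked from the first to the last exon. Exons 2 to 4 are nearly equal across the genes, and the long bars of Mcpt9 and Gzmb come from a first exon of 1282 bases and a last exon of 707 bases.

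Close copies matter for this cluster because reads were 50 bases long, although they were paired. In GENCODE M21, the coding sequences of Cma2 and Mcpt9 have 724 identical bases out of 738 aligned (98.1 percent). Mcpt1 and Mcpt4 follow at 87.0 percent. Cma1 is most like Mcpt4, at 71.3 percent, and Gzmb is most like Gzmc, at 77.9 percent. The median over the 45 pairs was 65.2 percent.

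Counting exact 50-base stretches of the annotated transcripts, 39.8 percent of those of Cma2 and 18.8 percent of those of Mcpt9 also occur in another gene. Of these, 367 are common to both. The transcripts of Mcpt9 hold 1951 such stretches and those of Cma2 1049, so the percentages have unlike bases. For Mcpt4 the share was 5.48 percent, with Cma2 and Mcpt9 as the other genes. Cma1 shared 5.38 percent of its stretches, all with the pseudogene Gm48934, which lies between Cma2 and Mcpt1. Gzmc shared 4.14 percent with the granzyme genes Gzme, Gzmg and Gzmd. Mcpt1, Mcpt2, Mcpt8, Ctsg and Gzmb shared 0 stretches. These counts take single reads, so the other read of each pair was not considered. How the authors treated reads that fit several genes is not stated in the labels or file headers, so the largest such uncertainty lies with Cma2 and Mcpt9.

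**Figure D5:**
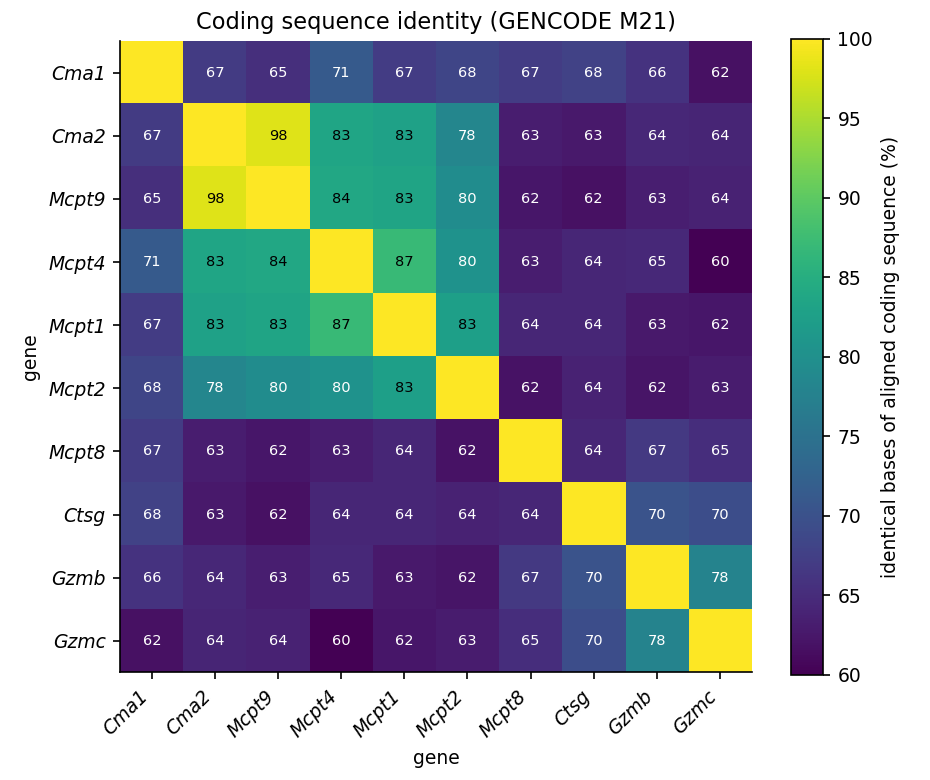
Percent of identical bases in aligned coding sequence (colour and printed number) for each pair of the 10 genes (both axes), from GENCODE M21. Cma2 and Mcpt9 are 98.1 percent identical, the Mcpt1, Mcpt2, Mcpt4, Mcpt9 and Cma2 group forms a bright block, and Cma1 reaches at most 71.3 percent with any other.

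Since the mice differ by a miR-9 allele, the transcripts were searched for matches to the miR-9 seed, the stretch of bases 2 to 8 through which a microRNA pairs with its targets. The mature sequences from RefSeq (GRCm38.p6, Mir9-1 on chromosome 3) are shown with the seed in capitals, because the search used these letters.
miR-9-5p: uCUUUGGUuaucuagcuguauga
miR-9-3p: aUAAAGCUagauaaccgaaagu
The 7-base matches are ACCAAAG for miR-9-5p and AGCTTTA for miR-9-3p, and 6-base matches leave out the first letter of each. In the longest annotated 3′ UTR of the 10 genes, 32 to 581 bases long, 0 genes held a 7-base or a 6-base match to either arm of miR-9. Of all 20937 genes with a 3′ UTR of at least 20 bases, 12.2 percent held ACCAAAG and 11.3 percent AGCTTTA, while 34.6 and 28.2 percent held the 6-base matches. Among the 7329 genes whose 3′ UTR is as long as those of the cluster, the shares were 2.57 and 1.91 percent for 7 bases, and 9.41 and 6.47 percent for 6 bases. The absence of these letters from short UTRs is a description of the sequence only.

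Sequence upstream of the genes was read from RefSeq (GRCm38.p6), from 250 bases before to 50 bases after the start, and 8 of the 10 genes matched (Cma2 and Mcpt2 did not). The motifs searched on both strands were AGATAA or TGATAA or AGATAG or TGATAG for GATA factors, CATGTG or CACGTG for MITF-type E-boxes, TGTGGT for RUNX factors, GAGGAA for PU.1, TTCNNNGAA for STAT factors, and TATAAA or TATATA for the TATA box. RUNX letters were found in 7 of 8 windows, beside 16.8 percent of all 32851 promoters of this length; the one of Cma1 lies after the start. GATA letters occurred in Cma1, Mcpt1 and Mcpt4, that is 3 of 8, beside 29.8 percent of promoters. E-box letters were in 2 of 8 (Ctsg and Gzmc), beside 20.4 percent. PU.1 letters were in 4 of 8 (Mcpt8, Mcpt9, Ctsg and Gzmc), beside 28.3 percent, and STAT letters in 2 of 8 (Ctsg and Gzmb), beside 8.30 percent. The PU.1 letters of Gzmc and the STAT letters of Gzmb also lie after the start. This start is that of RefSeq, which differs from the 5′ end of the deposited gene model for Cma1, Mcpt8, Gzmb and Gzmc. The STAT letters of Gzmb lie upstream of the 5′ end of its deposited gene model. TATA letters were in 3 of 8 (Mcpt1, Mcpt4 and Ctsg), beside 17.1 percent. Those of Ctsg begin 237 and 235 bases before the start, against 28 in Mcpt1 and 32 in Mcpt4. In Ctsg the E-box and RUNX letters overlap.

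The 150 bases before the start are shown for the 4 genes with the largest log2 fold changes, with the letters of these motifs in capitals except those of the TATA box.
Cma1 (chr14:55944676-55944825, minus strand): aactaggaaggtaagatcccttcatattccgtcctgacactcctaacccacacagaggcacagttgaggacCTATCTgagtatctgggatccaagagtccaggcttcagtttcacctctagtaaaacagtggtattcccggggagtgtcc
Gzmb (chr14:56262335-56262484, minus strand): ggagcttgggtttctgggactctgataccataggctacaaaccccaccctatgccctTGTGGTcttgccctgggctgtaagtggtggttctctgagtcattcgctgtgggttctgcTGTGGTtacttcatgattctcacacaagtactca
Mcpt1 (chr14:56017814-56017963, plus strand): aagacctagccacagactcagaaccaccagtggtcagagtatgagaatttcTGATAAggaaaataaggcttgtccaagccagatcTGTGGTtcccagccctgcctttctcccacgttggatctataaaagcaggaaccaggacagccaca
Mcpt4 (chr14:56062311-56062460, minus strand): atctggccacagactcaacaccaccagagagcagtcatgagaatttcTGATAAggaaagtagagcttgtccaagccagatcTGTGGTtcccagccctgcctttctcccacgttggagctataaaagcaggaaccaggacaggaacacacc
Mcpt1 and Mcpt4 read almost alike here: over the whole 300-base window 85.6 percent of aligned bases were identical. Both hold TGATAA followed by TGTGGT, whose first letters are 34 bases apart, and a TATAAA that begins 28 bases before the start in Mcpt1 and 32 in Mcpt4. Gzmb holds TGTGGT at 2 places, beginning 93 and 34 bases before its start, and Cma1 holds the GATA letters on the opposite strand, read here as CTATCT, beginning 79 bases before its start. These windows are therefore not independent of each other for Mcpt1 and Mcpt4, and a match does not show that a factor binds.

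Genes that act together with these enzymes were read from lists. Of the granule proteases encoded elsewhere, 2 of the 4 with a p-value were called higher, beside 0.245 percent of all tested genes. The first was Tpsg1, a transmembrane tryptase (2.58 per the authors' deposited table, adjusted p = 0.000533). The other was Tpsb2, a tryptase of the granule (1.60 per the authors' deposited table, adjusted p = 0.0149). Both lie close together on chromosome 17. The mast cell carboxypeptidase gene Cpa3, whose product is stored together with Cma1 and depends on it for storage, stood at 0.42 per the authors' deposited table (p = 0.0983, adjusted p = 0.729). Tpsab1 stood at -0.12 per the authors' deposited table (p = 0.807). Within the granule proteases, then, both calls lay outside the chymase cluster.

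Of 10 genes for protease maturation and granule storage, 5 had a p-value, 0 were called by the adjusted p, 0 had an unadjusted p under 0.05, and 3 of the 5 were positive. Cst7, which encodes the cathepsin C inhibitor cystatin F, stood at 0.45 per the authors' deposited table (p = 0.0558). Ext1, a heparan sulfate polymerase gene, stood at -0.46 (p = 0.164), and Srgn, for the core protein serglycin, at 0.35 (p = 0.183) per the authors' deposited table. Ctsc, for cathepsin C itself, stood at -0.33 per the authors' deposited table (p = 0.419). The members of this group had values of both signs, and none passed the test over all genes.

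Serine protease inhibitors and broad inhibitors read here with a p-value were A2m, Serpinb6a, Serpina3g, Serpinb1a, Serpina3n and Serpinb6b, and 0 of these 6 were called. The smallest p-value was that of A2m, the alpha-2-macroglobulin gene (-0.98, p = 0.0360, adjusted p = 0.566), per the authors' deposited table. Serpinb6a stood at -0.36 (p = 0.247), Serpina3g at -0.11 (p = 0.755) and Serpinb1a at 0.08 (p = 0.773) per the authors' deposited table.

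Of 8 genes for proteins reported as chymase substrates, 5 had a p-value and 0 were called. An unadjusted p under 0.05 was found for 1 of the 5, beside 7.92 percent of all tested genes. The median of the 5 was -0.58 per the authors' deposited table, and 1 was positive, beside 40.2 percent of all tested genes. Kitl, the stem cell factor gene, stood at -1.07 per the authors' deposited table (unadjusted p = 0.0339, adjusted p = 0.553), and Tgfb1 at 0.40 per the authors' deposited table (p = 0.0725). Mmp2 stood at -0.61 (p = 0.248) and Agt, for angiotensinogen, at -0.58 (p = 0.272) per the authors' deposited table.

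Transcription factors known to act at mast cell protease genes showed 0 calls among the 11 of 12 with a p-value, also at an unadjusted p under 0.05, with 5 positive values and a median of -0.06 per the authors' deposited table. Bhlhe40 stood at -0.34 (p = 0.0668), Stat5b at -0.12 (p = 0.595), Tal1 at -0.17 (p = 0.613) and Cebpa at 0.26 (p = 0.625) per the authors' deposited table. Of 6 cytotoxic granule genes at other loci, 4 had a row, 3 had a p-value and 0 were called, with 0 at an unadjusted p under 0.05. The perforin gene Prf1 stood at -0.59 (p = 0.210), the granzyme gene Gzmm at -0.36 (p = 0.384) and Lamp1 at 0.24 (p = 0.583) per the authors' deposited table. Prf1 and Gzmm thus had the opposite sign to Gzmb and Gzmc, and Lamp1 the same sign. Of all tested genes 40.2 percent were positive, and a difference between these genes was not tested.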

How the data were processed

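The series provides 1 table with 25549 gene models. The submitters' processing notes name the builds GRCm38 and mm10 and the tools DESeq2, DESeq, HTSeq, STAR and Cuffdiff, without versions or roles. Per the labels' protocols, heparinase-treated, rRNA-depleted, stranded total RNA was read as paired 50-base reads, about 70000000 per sample. Per the file headers, each gene has the authors' log2 fold change (miR-9 line over Cpa3-Cre), their unadjusted p-value and a summed exon length. Further details of the model, the filters, shrinkage of fold changes, and use of strand and of multiply mapped reads are not stated in the labels or headers. Another 5 columns hold per-library values under names that fit no sample's labels. They were not used, so values per sample, their spread, depth per gene and any expression test here are not given. The count test planned for usable counts was therefore replaced, as planned, by the authors' p-values, adjusted here by Benjamini-Hochberg over 24071 genes. Called means an adjusted p under 0.05. The adjustment was tested on simulated data.

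Members and lists were chosen with earlier results of these data known. Named genes were the 10 proteases, every model lying in the cluster or within 200 kb, and, per list, called genes and up to 4 with the smallest p-values. Prss34 was named after its values were seen. 1 gene of the inhibitor list is not reported here, whatever its values, so that list is given without a median. Xist and the chromosome Y models were also read after their values were seen. Coding sequences were aligned globally with Biopython 1.88 (Python 3.11.15). Coding and 3′ UTR annotation came from GENCODE M21 (GRCm38). Alternatives were Bonferroni and Benjamini-Yekutieli adjustment, unadjusted thresholds of 0.0001 and 0.05, protein-coding genes only, and models of at least 200 bases.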

Additional observations from a re-analysis of the deposited data

How the results depend on the processing

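Of the 10 protease genes, 0 were called with Bonferroni or Benjamini-Yekutieli adjustment, at the unadjusted threshold of 0.0001 named in the design text, with protein-coding genes only, and with models of at least 200 bases only; 2 (Cma1 and Gzmb) passed at an unadjusted p under 0.05. The adjusted p of Cma1 ran from 0.347 (protein-coding genes only) to 1 (Bonferroni and Benjamini-Yekutieli), and that of Gzmb from 0.506 to 1. Ripk3 was called under all 6 alternatives. Over all genes, the 99 calls became 20 with Bonferroni, 24 with Benjamini-Yekutieli and 1906 at an unadjusted p under 0.05, and were 72 at 0.0001, 116 with protein-coding genes only and 98 with models of at least 200 bases. No paired analysis was possible because the 5 per-library columns could not be tied to samples. DESeq2 size factors, a low-count filter and leaving out each replicate were planned for counts with a known sample and were not run, since columns that fit no sample's labels were left out of every step. Whether 1 library decides a value was not tested. Depth per gene was not analysed here.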
